A study of Homo sapiens with 12 samples.

Results

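Mucin genes and PIGR, the polymeric immunoglobulin receptor, were followed through SKBR3 cells given an EGFR and HER2 kinase inhibitor, an EZH2 inhibitor, or both. The 10 genes were named by symbol (MUC1, MUC15, MUC4, MUC13, MUC16, MUC20, MUC5AC, MUC5B, MUC6 and PIGR), and the choice was made because MUC15 was higher with lapatinib and PIGR higher with GSK126 in these same libraries. A row was found for 9 of the 10 among 22170 genes, and 8 of those 9 were among the 14179 genes tested, those that reached a normalized count of 10 in 3 or more libraries. MUC13 missed the filter, and MUC5AC was not analysed here.

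SKBR3 is an established HER2-amplified breast cancer line. Messenger RNA was sequenced from 4 groups of 3 libraries. The DMSO group received vehicle throughout. The lapatinib group received vehicle and then 100 nM lapatinib, which blocks the kinases of EGFR and HER2, for the last 24 h. The GSK126 group received 5 µM GSK126, an inhibitor of the histone H3K27 methyltransferase EZH2, from day -6 to the harvest on day 1. The combination group received the same GSK126 course with 100 nM lapatinib added on day 0. Every group was passaged on day -3 and plated on day -1 (350000 cells a plate), so all groups share the line, the schedule and the vehicle. Whether the 3 libraries within a group are from separate cultures is not in the labels, so p-values measure the spread between these libraries, which may be technical. In such bulk samples, fewer cells that express a gene and less RNA per cell cannot be told apart.

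Mucins are large glycoproteins whose repeat domains carry dense O-linked sugar chains. The transmembrane members (MUC1, MUC4, MUC13, MUC15, MUC16 and MUC20) stay on the apical surface of epithelial cells, where several of them act as barriers and some contact receptor tyrosine kinases, while the gel-forming members (MUC5AC, MUC5B and MUC6) are secreted and build mucus. PIGR binds polymeric IgA and IgM at the basal side of an epithelial cell and carries them to the apical side, where its outer part is cleaved and released as secretory component. In breast, PIGR and several mucins belong to the secretory epithelium, and their proteins appear in milk. EZH2 writes the repressive H3K27me3 mark, and HER2 signalling drives growth of this line.

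Values are the authors' normalized counts, that is, reads per gene divided by a scaling factor for each library. Libraries held 17693103 to 30349466 reads in genes. Reads were found in 15059 to 17338 genes in 11 libraries and in 21669 in combination replicate 1, where 89.0% of rarely seen genes had a read, against 3.10% to 10.6% in the others. The added spike-in RNA had a second composition in GSK126 replicates 2 and 3 and combination replicate 1 (correlations of 0.997 to 0.998 among these 3 libraries and 0.961 to 0.990 with the rest), so each tested result was also computed without them. GSK126 replicate 1 stood apart too, at 0.961 to 0.965 with these 3 and 0.982 to 0.990 with the remaining libraries, which agreed at 0.994 or more. A fit without the second composition thus keeps, as its only GSK126 library, one that was itself apart. Luminal markers summed to 614008 to 1085430 per library over 9 genes, of which CDH1, the gene for E-cadherin, was nearly absent (0 to 2.82, and 12.4 in combination replicate 1), while 4 basal markers summed to at most 83.1. Goblet cell markers (5 genes) summed to 195 to 735 over all groups, and most of that sum was ZG16 (176 to 705). Plasma cell and leukocyte markers (6 genes with a row) summed to 481 to 550 with DMSO, 553 to 589.5 with lapatinib, 434 to 519.7 with GSK126 and 704 to 838 with the combination. Most of that sum was CD68 and MZB1, which moved in opposite ways. Over these groups, means were 156, 262, 347 and 680 for CD68 and 366, 308, 127 and 85.9 for MZB1. PTPRC was at 0 to 1.53 outside combination replicate 1, where it was 19.9. Fibroblast and endothelial markers (6 genes) summed to 453 to 646, 391 to 471, 1077 to 1777 and 850.1 to 1222 in the same order of groups. The higher sums with GSK126 were mostly CDH5 (mean 141 with DMSO and 1266 with GSK126), while COL1A2 (37.9 and 0), VWF (94.9 and 39.5) and COL1A1 (248.6 and 193) were lower there. The part of these marker genes in the results was not tested.

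The comparisons of lapatinib with DMSO and of GSK126 with DMSO served to choose the genes, so they are given as values without a test. Whether the choice also looked at the combination libraries is not stated, so the tests of MUC15 and PIGR may not be independent of it. The tests set the combination against GSK126 alone (lapatinib added to GSK126) and against lapatinib alone (GSK126 added before lapatinib), and both use the same 3 combination libraries. They were made with limma on log2(normalized count + 1) over all 14179 genes, and an adjusted p under 0.05 counts as passed. All 12 libraries share 1 estimate of the spread, although the groups differed in it. The median SD of log2 values over genes was 0.243 with DMSO, 0.116 with lapatinib, 0.432 with GSK126 and 0.203 with the combination. A shared spread tends to make tests against GSK126 lenient and those against lapatinib strict, so their calls are not like for like. MUC15 against lapatinib alone and PIGR against GSK126 alone are also given without a test, because the libraries on which each was chosen form the second arm. A log2 change on this scale understates the change of genes with low counts.

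**Figure D1:**
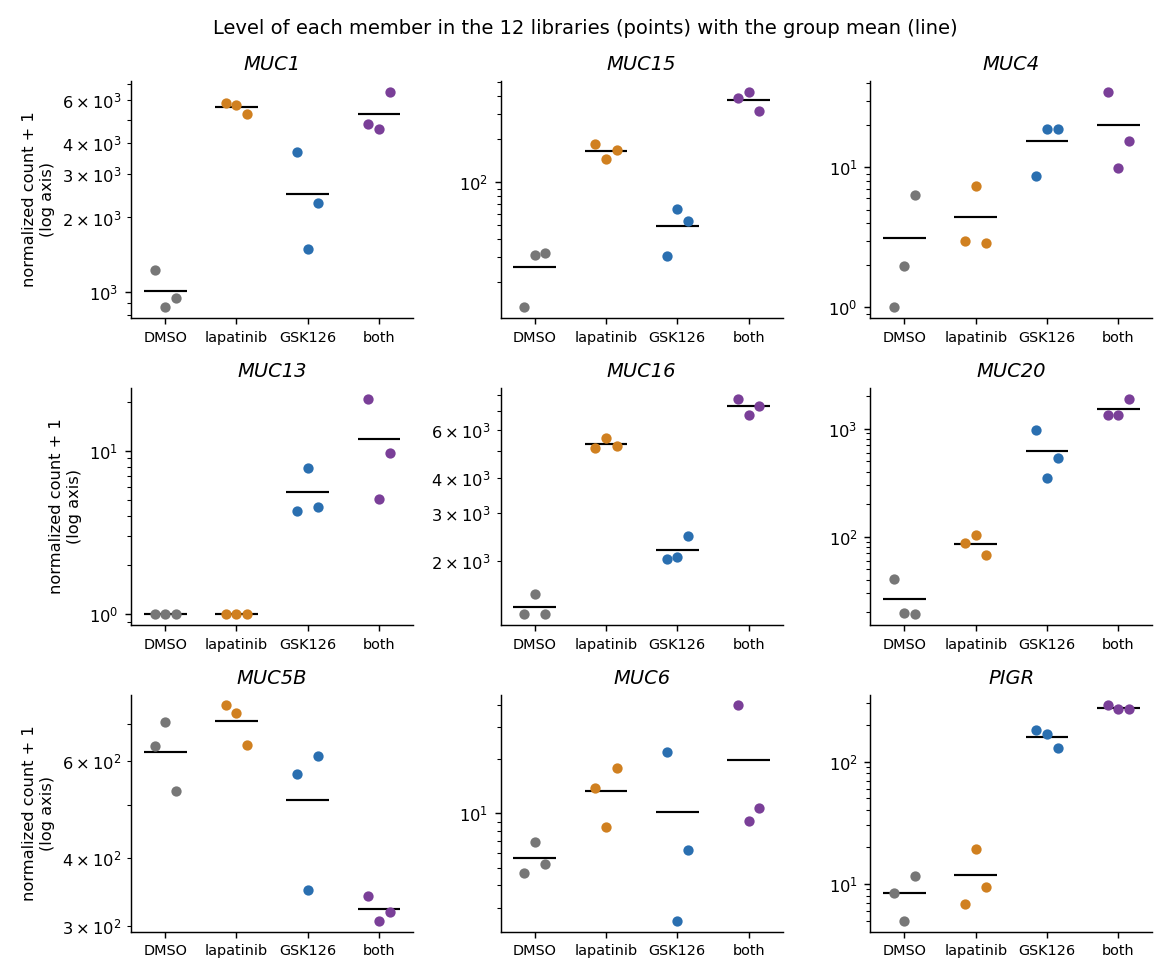
Normalized count + 1 (log axis) of the 9 genes with a row, in 1 panel each. Points are the 3 libraries of a group and the line is their mean. MUC15 was at 144.7 or more in the libraries with lapatinib and at most 63.7 in the others. PIGR was at 127 or more in the 6 libraries with GSK126 and at most 18.1 without it. For MUC20 these bounds were 350 and 102.2.

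MUC15, a transmembrane mucin found in the milk fat globule membrane, was high where lapatinib was present and highest where GSK126 was present too. Its normalized count was 12.3, 29.6 and 31.0 with DMSO, 184, 145 and 165 with lapatinib, 29.6, 63.7 and 52.2 with GSK126, and 385, 426 and 315 with the combination. The 6 libraries with lapatinib were all above the 6 without it, and the 3 combination libraries were all above the 3 with lapatinib alone, while the DMSO and GSK126 libraries overlapped. Group means (± SD, n = 3) were 24.3 ± 10.4, 165 ± 19.7, 48.5 ± 17.3 and 375 ± 56.1. The difference between lapatinib and DMSO, on which the gene was chosen, was 2.81 ± 0.36 (log2 ± SE), or 7.02-fold. That between GSK126 and DMSO was 1.01 ± 0.36.

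Whether the choice also drew on the combination libraries is not stated, so the test of MUC15 may not be independent of it. MUC15 rose when lapatinib was added to GSK126, by 2.98 ± 0.36 on the log2 scale (7.92-fold, limma adjusted p = 0.000101). This rise passed in all 26 alternative analyses, with log2 changes from 1.94 to 3.59. Against lapatinib alone, the libraries on which MUC15 was chosen, the combination was higher by 1.18 ± 0.36 (2.27-fold), given without a test. The response to lapatinib with GSK126 exceeded that without it by 0.17 ± 0.50 on the log2 scale, given without a test because the choice of the gene fixed one side of that difference.

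PIGR was low in every library without GSK126 and high in every library with it. Its normalized count was 7.35, 3.95 and 10.7 with DMSO and 5.88, 18.1 and 8.45 with lapatinib. With GSK126 it was 179.6, 168 and 127, and with the combination 288, 269 and 269. The DMSO and lapatinib libraries overlapped, the GSK126 libraries lay above both, and the combination libraries lay above all others. Group means (± SD, n = 3) were 7.33 ± 3.36, 10.8 ± 6.44, 158 ± 27.5 and 275 ± 10.8. The level with DMSO rested on 4 to 10 reads per library and that with the combination on 231 to 332.

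GSK126 against DMSO, the comparison behind the choice of PIGR, differed by 4.33 ± 0.40 (20.1-fold). Lapatinib against DMSO differed by 0.45 ± 0.40. In the libraries given lapatinib, PIGR rose with GSK126 by 4.68 ± 0.40 (25.7-fold, limma adjusted p = 4.34e-06). It passed in all 26 alternative analyses, with log2 changes from 4.21 to 5.10. PIGR met the filter on counts only through the libraries with GSK126, where it was high, so this test is not independent of that group. Against GSK126 alone, the libraries on which PIGR was chosen, the combination differed by 0.81 ± 0.40, given without a test, and scaling to the spike-ins turned that direction, to -0.23.

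The stretch upstream of the annotated PIGR start is shown because PIGR was low in every library without GSK126. Sequences come from RefSeq (GRCh38.p14), which matched 5 of the 10 genes, and each runs 5′ to 3′ on the minus strand. Capitals mark matches to AANNGAAA, the core bound by interferon regulatory factors, in the 250 bases before the start at chr1:206946467-206946716 and in 30 bases around the start at chr1:206946440-206946469, where the match is read from the other strand.
PIGR upstream: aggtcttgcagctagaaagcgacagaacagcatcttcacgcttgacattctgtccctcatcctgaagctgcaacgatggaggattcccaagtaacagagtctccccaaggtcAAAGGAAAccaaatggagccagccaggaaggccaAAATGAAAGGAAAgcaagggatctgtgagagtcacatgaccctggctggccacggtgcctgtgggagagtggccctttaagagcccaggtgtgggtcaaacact
PIGR start: actgagcagagTTTCAGTTttggcagcagc

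The PIGR window (250 bases before and 50 after the start) held 4 matches, beginning at bases -138, -104, -99 and 9 from the start, of which those at -104 and -99 overlap. A match to this motif on either strand was present in 22.8% of 35116 RefSeq promoter windows of the same length. How many windows hold as many matches as that of PIGR was not counted. MUC1, MUC4, MUC13, MUC16 and MUC20 also had all GSK126 libraries above all DMSO libraries. The windows of MUC1 and MUC16 held no match to this motif, and MUC20 had no window to search. The MUC13 window held 3 matches to this motif, and the MUC4 window held no match to it but a STAT match and a GC box. None of the other 5 motifs searched on both strands was found in the PIGR window: the E-box CACGTG (7.26% of windows), the STAT motif TTCNNNGAA (7.66%), the forkhead motif GTAAACA (3.42%), the AP-1 motif TGANTCA (7.71%) and the GC box GGGCGG (45.0%). The ratio of observed to expected CpG in the PIGR window was 0.23, against a median of 0.579 over all windows. A match describes letters only, and no binding was measured.

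MUC1, the transmembrane mucin whose shed form is the serum marker CA15-3, was highest in the libraries with lapatinib, whether or not GSK126 was given. Its normalized count was 1217, 861 and 945 with DMSO, 5829, 5734 and 5283 with lapatinib, 3697, 1489 and 2296 with GSK126, and 4817, 4570.4 and 6483 with the combination. The GSK126 libraries lay between DMSO and the libraries with lapatinib and did not overlap either, while the lapatinib and combination libraries overlapped. Group means (± SD, n = 3) were 1007 ± 186, 5615 ± 291, 2494 ± 1117 and 5290.1 ± 1041. Without a test, lapatinib differed from DMSO by 2.49 ± 0.27 on the log2 scale and GSK126 by 1.22 ± 0.27.

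MUC1 rose when lapatinib was added to GSK126, by 1.17 ± 0.27 (2.24-fold, limma adjusted p = 0.00967). The combination differed from lapatinib by -0.10 ± 0.27, which did not pass (adjusted p = 0.859). The call against GSK126 was lost in a fit of those 2 groups only (adjusted p = 0.0666) and without the 3 libraries of the second spike-in composition (0.56, adjusted p = 0.0723), a fit that keeps GSK126 replicate 1 alone and assumes that it varies like the other groups. The response of MUC1 to lapatinib with GSK126, minus that without it, was -1.33 ± 0.38 (the interaction), which did not pass (unadjusted p = 0.00382, limma adjusted p = 0.397).

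The window before MUC1, the member with the highest level per length, is shown for contrast with PIGR, with matches to GGGCGG in capitals. It covers the 250 bases before the start at chr1:155192916-155193165.
MUC1 upstream: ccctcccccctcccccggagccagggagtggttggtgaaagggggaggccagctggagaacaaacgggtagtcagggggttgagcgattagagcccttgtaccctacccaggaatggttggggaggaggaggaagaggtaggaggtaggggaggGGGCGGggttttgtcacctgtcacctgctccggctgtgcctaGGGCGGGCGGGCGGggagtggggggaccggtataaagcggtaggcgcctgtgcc
The 4 matches begin at bases -96, -54, -50 and -46, each of the last 3 overlapping its neighbour, and no other motif of the 6 was found there. Its CpG ratio was 0.42.

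MUC16, the transmembrane mucin that carries the CA125 epitope, had a clear order over the 4 groups. The libraries had normalized counts of 1291, 1515 and 1283 with DMSO, 2028, 2072 and 2462 with GSK126, 5139, 5596 and 5231 with lapatinib, and 7764, 6789 and 7313 with the combination. No 2 groups overlapped. Group means (± SD, n = 3) in that order were 1363 ± 132, 2187 ± 239, 5322 ± 242 and 7289 ± 488. Lapatinib differed from DMSO by 1.97 ± 0.13 and GSK126 from DMSO by 0.68 ± 0.13, both given without a test.

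MUC16 rose when lapatinib was added to GSK126 by 1.74 ± 0.13 (3.34-fold, limma adjusted p = 1.88e-06), and by 0.45 ± 0.13 when GSK126 preceded lapatinib (1.37-fold, adjusted p = 0.0258). The smaller rise lost its call when any lapatinib library, combination replicate 1 or combination replicate 3 was left out (adjusted p = 0.0618 to 0.106), and with spike-in scaling it was -0.01. The window before its upstream RefSeq start is shown for contrast with MUC1, at chr19:9065752-9066001, with its GC box (read from the other strand) in capitals.
MUC16 upstream: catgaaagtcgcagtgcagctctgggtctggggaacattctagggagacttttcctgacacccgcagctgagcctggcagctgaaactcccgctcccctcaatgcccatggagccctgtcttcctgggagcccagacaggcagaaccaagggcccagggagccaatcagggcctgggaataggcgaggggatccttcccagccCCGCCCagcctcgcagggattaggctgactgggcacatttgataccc
It held 1 GC box, beginning at base -47, and its CpG ratio was 0.28.

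MUC20, a transmembrane mucin reported to bind the receptor kinase MET, was low with DMSO, higher with lapatinib and far higher with GSK126. The counts were 39.2, 18.8 and 18.1 with DMSO, 86.2, 102 and 66.6 with lapatinib, 969, 350.5 and 537 with GSK126, and 1324, 1344 and 1891 with the combination. No 2 groups overlapped. Group means (± SD, n = 3) were 25.4 ± 11.99, 85.0 ± 17.8, 619 ± 317 and 1519.9 ± 322. GSK126 differed from DMSO by 4.52 ± 0.37 (22.9-fold) and lapatinib from DMSO by 1.77 ± 0.37, without a test.

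MUC20 rose with GSK126 in the libraries given lapatinib by 4.15 ± 0.37 (17.7-fold, limma adjusted p = 5.77e-06), in all 26 alternative analyses too. When lapatinib was added to GSK126 it rose by 1.40 ± 0.37 (2.64-fold, adjusted p = 0.0194). The second call was lost without GSK126 replicate 3, combination replicate 2 or combination replicate 3 (adjusted p = 0.0512 to 0.0691), and without the second spike-in composition, where the change was 0.72 (adjusted p = 0.21). A pseudogene copy of MUC20 lies on the same chromosome, and how the authors' counting treated reads that match both is not given in the sources used here, so its single values are less certain.

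MUC4, a transmembrane mucin known to bind HER2, and MUC13, a transmembrane mucin of the gut lining, were close to the detection limit. MUC4 had a normalized count of 0, 0.988 and 5.34 with DMSO, 1.96, 6.39 and 1.88 with lapatinib, 7.67, 17.6 and 17.7 with GSK126, and 33.6, 8.90 and 14.5 with the combination. All 6 libraries with GSK126 lay above the 6 without it. The combination exceeded lapatinib by 2.13 ± 0.76 and did not pass in limma (adjusted p = 0.0756), while DESeq2 called it (adjusted p = 0.0233). Against GSK126 the combination differed by 0.27 ± 0.76 (adjusted p = 0.832).

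MUC13 had 0 reads in all 6 libraries without GSK126, which allows up to 3 counts in each. It had 3, 9 and 4 reads with GSK126 and 16, 5 and 9 with the combination, 46 reads in all. Detection and GSK126 went together in every library. The 16 reads are from combination replicate 1, where 89.0% of rarely seen genes had a read, so detection there says little about expression. In a fit with no filter on low counts the combination exceeded lapatinib by 3.33 ± 0.59 (limma adjusted p = 0.00155) and GSK126 by 0.91 ± 0.59 (adjusted p = 0.366). That fit includes combination replicate 1. Replicates 2 and 3 alone exceeded lapatinib by 2.80 on the log2 scale, given without a test. The fitted change of a gene at 0 depends on the count of 1 added before taking logs and is no bound.

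Of the secreted mucins, MUC5B, the gel-forming mucin of airways and salivary glands, was the abundant member and was lowest with the combination. The normalized counts were 637, 705 and 527 with DMSO, 757, 732 and 640.0 with lapatinib, 567, 349 and 611 with GSK126, and 339.8, 306 and 318 with the combination. All 3 combination libraries lay below the other 9, and the other 3 groups overlapped, except that GSK126 lay below lapatinib. Group means (± SD, n = 3) were 623 ± 90.0, 709.7 ± 61.6, 509 ± 140.3 and 321 ± 17.2. Without a test, lapatinib differed from DMSO by 0.19 ± 0.20 and GSK126 by -0.32 ± 0.20.

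MUC5B fell when GSK126 preceded lapatinib, by 1.14 ± 0.20 on the log2 scale (a ratio of 0.454, limma adjusted p = 0.00153). Against GSK126 alone the combination differed by -0.62 ± 0.20, which did not pass in limma (adjusted p = 0.0507) but did in edgeR (adjusted p = 0.0365). Its interaction was -0.82 ± 0.29, with an unadjusted p of 0.0143 and an adjusted p of 0.651. The fall against lapatinib lost its call with spike-in scaling (adjusted p = 0.0955), where the change was larger, at -1.60.

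MUC6, the gel-forming mucin of gastric glands, was low everywhere. Its normalized count was 3.68, 5.93 and 4.27 with DMSO, 12.7, 7.45 and 16.9 with lapatinib, 20.8, 1.53 and 5.30 with GSK126, and 38.6, 8.09 and 9.64 with the combination. The lapatinib and combination libraries lay above the DMSO libraries, and all other pairs of groups overlapped. The combination differed from GSK126 by 1.15 ± 0.77 (limma adjusted p = 0.322) and from lapatinib by 0.29 ± 0.77 (adjusted p = 0.86). Much of its level in the combination came from replicate 1, the library with reads in the most genes.

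**Figure D2:**
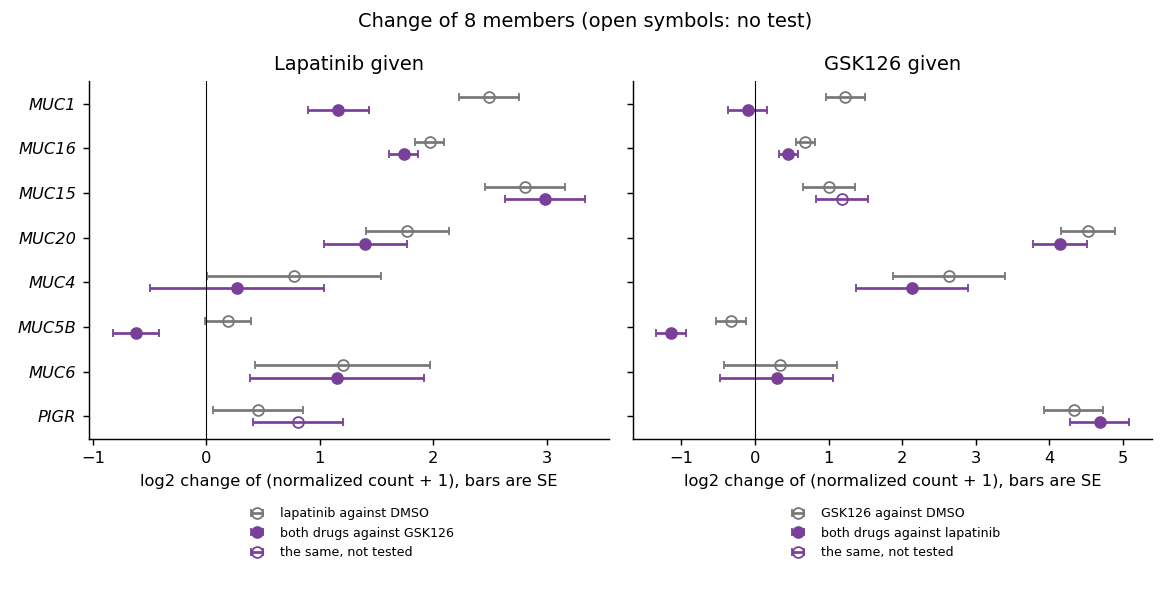
Fitted log2 change (bars are SE) of the 8 tested genes in 4 comparisons. Open grey symbols are the comparisons used for the choice, which carry no test, purple symbols set the combination against each single drug, and the open purple ones were not tested: MUC15 stands highest where lapatinib was added to GSK126 (2.98), PIGR (4.68) and MUC20 (4.15) where GSK126 preceded lapatinib, and MUC5B lowest in both.

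Over the 8 tested genes, 5 had all lapatinib libraries above all DMSO libraries and 0 had them below. Over all tested genes the shares were 28.2% and 27.2%. With GSK126 against DMSO 5 of 8 lay wholly above and 0 below, against 14.4% and 9.59% of all genes. These comparisons chose the genes, so nothing is read from the counts. When lapatinib was added to GSK126, 4 of the 7 genes other than PIGR passed as higher (MUC1, MUC15, MUC16 and MUC20) and 0 as lower, against 8.48% and 9.71% of all genes. By overlap alone, 5 of 8 lay wholly higher (MUC1, MUC15, MUC16, MUC20 and PIGR) and 1 wholly lower, against 15.6% and 14.0%. That count includes PIGR, although the GSK126 libraries served its choice, so nothing is read from it. At an unadjusted p under 0.05, 1 of the 7 was lower (MUC5B), and both edgeR and DESeq2 called it.

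When GSK126 preceded lapatinib, 3 of the 7 genes other than MUC15 passed as higher (MUC16, MUC20 and PIGR) and 1 as lower (MUC5B), against 11.5% and 6.35% of all genes. By overlap alone the counts over all 8 genes were again 5 (MUC4, MUC15, MUC16, MUC20 and PIGR) and 1, against 23.7% and 23.6%. They include MUC15, although the lapatinib libraries served its choice, so nothing is read from them. MUC16 and MUC20 were thus called higher in both comparisons, which share the combination libraries. The filter bears on such counts: MUC4 had no library and PIGR and MUC6 had 2 libraries at 10 or more among the 6 without GSK126, so these 3 genes were tested because of the groups where they were high. For the 6 genes other than MUC15 and PIGR, the response to lapatinib with GSK126 was tested against that without it. Of these, 0 passed in limma, edgeR or DESeq2 and 2 had an unadjusted p under 0.05 in each tool (in limma MUC1 and MUC5B, both with a negative difference). Of all genes, 0.0141% passed in limma with a positive and 0.00705% with a negative difference.

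The scale matters for direction. Scaling to the spike-ins instead of the authors' factors moved the median of all genes by -1.03 in the comparison with GSK126 and by -0.46 in that with lapatinib, so every rise given here is relative to the other genes. Under it MUC15 still rose over GSK126 (1.94, adjusted p = 0.042), and PIGR (4.21) and MUC20 (3.68) rose over lapatinib. The changes of MUC1 (0.12), MUC16 (0.70) and MUC20 (0.36) against GSK126 did not pass under it.

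**Figure D3:**
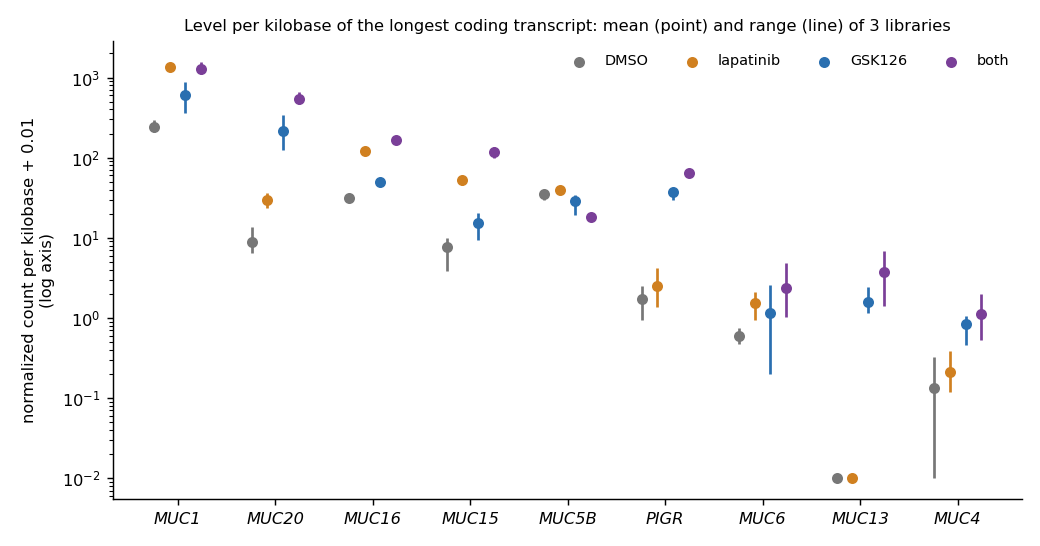
Normalized count per kb of the longest coding transcript, with 0.01 added (log axis), for the 9 genes. The point is the group mean and the line runs from the lowest to the highest library. MUC1 stood highest in every group, and PIGR and MUC20 changed rank between groups with and without GSK126.

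Levels can be compared between genes only per length. Divided by the longest coding transcript in GENCODE v29 (from 2842 bases for MUC20 to 43816 for MUC16), MUC1 led in every group, with a mean of 242 normalized counts per kb with DMSO, 1347 with lapatinib, 598 with GSK126 and 1269 with the combination. With DMSO the next were MUC5B (34.8 per kb) and MUC16 (31.1), and PIGR stood at 1.71. With the combination MUC20 was second at 535 per kb, followed by MUC16 at 166, MUC15 at 119, PIGR at 64.3 and MUC5B at 17.9. MUC16, the longest, had the higher counts of the 2 with DMSO and with the combination and stood far behind MUC1 per length in every group. MUC6, MUC13 and MUC4 stayed at or under 3.78 per kb on average in every group. Which transcripts the cells used is not given in the sources used here, and the lengths come from another genome build than the counts.

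Genes next to these members on the chromosome were looked up by RefSeq gene order and were chosen by position after values had been seen. MUC1 lies between TRIM46 and THBS3. THBS3 had 262, 165 and 229.8 with GSK126 and 475, 481 and 511 with the combination, and it rose by 1.18 ± 0.17 (limma adjusted p = 0.000521), much like MUC1 at 1.17. TRIM46 differed by 0.27 ± 0.24 in that comparison (adjusted p = 0.458) and fell against lapatinib by 1.21 ± 0.24 (adjusted p = 0.00293). MUC15 lies within the span of ANO3, whose counts were 0 to 4.82 apart from 29.9 in combination replicate 1. Whether reads were assigned by strand is not given in the sources used here, so reads of overlapping genes may not be told apart. FCAMR, next to PIGR, did not exceed 8.71 in any library. HEG1, next to MUC13, rose with GSK126 in the libraries given lapatinib by 2.90 ± 0.15 (adjusted p = 8.58e-08), while ITGB5 on the other side differed by 0.31 ± 0.11 (adjusted p = 0.0776). APOD, next to MUC20, had means of 70.4 with DMSO, 122 with lapatinib, 82.7 with GSK126 and 83.1 with the combination. For TOLLIP, next to MUC5B, means ran from 1677 to 1912, and for AP2A2, next to MUC6, from 1973 to 3215. MBD3L1 and OR1M1, next to MUC16, and SLC5A12, by MUC15, had reads only in combination replicate 1.

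The genes whose log2 values followed MUC15 most closely over the 12 libraries were PDCD4 (Pearson r = 0.986), MAP1LC3B (0.985), TTC9 (0.981), TP53INP1 (0.980) and CHP1 (0.978). For PIGR they were PDE8B (0.992), SAMD9L (0.984), LMO2 (0.983), CD44 (0.982) and IRF1 (0.982). For MUC16, the member with the highest mean count, they were NEAT1 (0.991), PIK3IP1 (0.990), NCALD (0.985), CRABP2 (0.983) and CHRM1 (0.983). These correlations are picked from all tested genes, run over groups that share their treatments, and are given as a description. IRF1, an interferon-induced transcription factor, showed the PIGR pattern at a higher level, with 196 to 256 counts with lapatinib and 2312 to 2702 with the combination.

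Related gene lists were counted in the same tests. Over all genes tested, 8.48% were called higher and 9.71% lower when lapatinib was added to GSK126, and 11.5% and 6.35% when GSK126 preceded lapatinib. Of 8 tested genes among 16 other mucin family members, 3 passed as higher (37.5%) and 1 as lower (12.5%) in the first comparison (median log2 change 0.60, against 0.04 over all genes). In the second, 4 were higher (50%) and 0 lower (median 0.77, against -0.03). MUC19 rose by 1.70 ± 0.26 (limma adjusted p = 0.000694) and MUC21 by 2.68 ± 0.85 (adjusted p = 0.0440) in the first comparison, as did the sialomucin CD164 (0.93 ± 0.30, adjusted p = 0.0476). MUC21 reached a count of 10 in the 3 combination libraries and in no other (at most 6.90), so it was tested because of the group where it was high. Podocalyxin, PODXL, fell there by 0.74 ± 0.24 (adjusted p = 0.0474) and rose against lapatinib by 2.29 ± 0.24 (adjusted p = 1.91e-05). MUC3A, an intestinal transmembrane mucin, rose from 54.2 ± 8.68 with lapatinib to 732 ± 73.6 with the combination (SD, n = 3, log2 change 3.74 ± 0.25, adjusted p = 7.93e-07). Its near-identical copy MUC3B may share its reads, so the value is uncertain. The count of 3 fell to 1 when combination replicate 1, or any of 8 other single libraries, was left out.

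Mucin-type O-glycan enzymes were divided. Of 24 tested genes (36 listed), 4 were higher and 4 lower when lapatinib was added to GSK126 (16.7% each, against 8.48% and 9.71% of all genes, median 0.32). When GSK126 preceded lapatinib, 8 were higher and 2 lower (33.3% and 8.33%, against 11.5% and 6.35%, median 0.46). FUT3, the fucosyltransferase that makes Lewis antigens, rose in both, by 0.90 ± 0.24 (limma adjusted p = 0.0201) and 1.81 ± 0.24 (adjusted p = 0.000131). B3GNT3, which extends core chains, rose in the first by 0.65 ± 0.13 (adjusted p = 0.00383). GALNT18 and GALNT14, which belong to the family that starts O-glycan chains, fell there by 0.51 ± 0.12 (adjusted p = 0.0131) and 2.38 ± 0.63 (adjusted p = 0.0202). In the second comparison the sialyltransferases ST3GAL4 (1.06 ± 0.19, adjusted p = 0.00167) and ST6GALNAC1 (3.46 ± 0.64, adjusted p = 0.00198) rose, as did GALNT16 (2.69 ± 0.54, adjusted p = 0.00345). GALNT14 and GALNT16 moved alike. GALNT16 fell in the first comparison (-1.93 ± 0.54, limma adjusted p = 0.0267), and GALNT14 rose in the second (2.27 ± 0.63, adjusted p = 0.0230). ST6GALNAC1 and GALNT14 reached a count of 10 in no library without GSK126. Leaving out 1 library at a time gave 1 to 9 higher and 1 to 4 lower in the first comparison, with the lowest count of higher genes without combination replicate 2 and the highest without GSK126 replicate 2.

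The mucus secretion and goblet list had more higher calls in the first comparison and more lower calls in the second. Of 16 tested genes (24 listed), 5 were higher and 1 lower when lapatinib was added to GSK126 (31.2% and 6.25%, against 8.48% and 9.71% of all genes, median 0.49). When GSK126 preceded lapatinib, 1 was higher and 6 lower (6.25% and 37.5%, against 11.5% and 6.35%, median -0.32). XBP1, a transcription factor of the secretory pathway, rose in the first by 1.28 ± 0.16 (limma adjusted p = 0.000127) and fell in the second by 1.34 ± 0.16 (adjusted p = 5.84e-05). CREB3L1, another secretory pathway factor, rose in the first from 73.1 ± 12.8 to 317 ± 19.95 counts (SD, n = 3, log2 change 2.11 ± 0.23, adjusted p = 3.96e-05). In the second CREB3L1 fell (-1.18 ± 0.23, limma adjusted p = 0.00245). BCAS1 rose in the first by 1.24 ± 0.15 (limma adjusted p = 0.000106). It differed in the second by -0.36 ± 0.15, which did not pass (adjusted p = 0.129).

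SPDEF, which drives goblet cell differentiation, fell in the second comparison from 18649 ± 1269 to 7873 ± 1080 counts (SD, n = 3, log2 change -1.25 ± 0.20, limma adjusted p = 0.000704). CREB3L4 fell there by 1.05 ± 0.15 (adjusted p = 0.000289). KLF4 rose in both comparisons, by 1.38 ± 0.18 (adjusted p = 0.000235) and 1.08 ± 0.18 (adjusted p = 0.00111). Leaving out any single library kept 4 to 6 higher in the first comparison and 5 to 7 lower in the second. With spike-in scaling the first comparison gave 0 higher and 2 lower, and the second 0 higher and 4 lower. MUC16 and MUC20 were called higher in the second comparison while SPDEF and XBP1 were called lower.

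The immunoglobulin transport list holds sorting and endosome genes and also LTF, LYZ, SLPI and LCN2, secreted antimicrobial proteins that do not carry immunoglobulin. Of 12 tested (15 listed), 2 were higher and 0 lower when lapatinib was added to GSK126 (16.7%, against 8.48% of all genes higher, median 0.28). When GSK126 preceded lapatinib, 2 were higher and 1 lower (16.7% and 8.33%, against 11.5% and 6.35%, median 0.08). RAB25, which sorts cargo to the apical surface, rose in the first by 0.78 ± 0.15 (limma adjusted p = 0.00312), and RAB5A of early endosomes by 0.70 ± 0.21 (adjusted p = 0.0359). In the second, both genes called higher were antimicrobial proteins of milk: lipocalin 2, LCN2, from 16.3 ± 5.15 to 543 ± 108 counts (SD, n = 3, log2 change 5.00 ± 0.43, adjusted p = 5.14e-06), and lactoferrin, LTF, by 2.12 ± 0.52 (adjusted p = 0.0121), which reached a count of 10 in no library without GSK126. RAB3D, a GTPase of secretory granules, fell by 0.44 ± 0.11 (adjusted p = 0.0158). Leaving out 1 library at a time gave 1 to 4 higher in the first comparison and 1 to 3 in the second.

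Of 20 genes for known inducers of PIGR and their receptors, all tested, 5 were higher and 2 lower when lapatinib was added to GSK126 (25% and 10%, against 8.48% and 9.71% of all genes, median 0.24). When GSK126 preceded lapatinib, 5 were higher and 0 lower (25%, against 11.5% higher, median 0.14). IRF1 rose in the second comparison from 224 ± 30.4 to 2447 ± 221 counts (SD, n = 3, log2 change 3.45 ± 0.16, limma adjusted p = 5.46e-08). The cytokine TNF rose there by 2.88 ± 0.35 (adjusted p = 8.09e-05), the NF-kappaB subunit RELB by 1.46 ± 0.25 (adjusted p = 0.00105) and the double-stranded RNA receptor TLR3 by 4.15 ± 0.83 (adjusted p = 0.00334). TLR3 reached a count of 10 in the 3 combination libraries and in no other (at most 4.42), so it was tested because of the group where it was high. In the first comparison TNF and RELB fell, by 1.43 ± 0.35 (adjusted p = 0.0147) and 1.06 ± 0.25 (adjusted p = 0.0111), while STAT6 rose by 0.90 ± 0.16 (adjusted p = 0.0024) and IL1R1 by 1.84 ± 0.35 (adjusted p = 0.00327). Leaving out 1 library at a time gave 4 to 6 higher in the second comparison and 2 to 8 in the first, the lowest without combination replicate 3 and the highest without GSK126 replicate 2.

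Among 9 tested partners and sheddases of mucins (10 listed), 1 was higher and 0 lower when lapatinib was added to GSK126 (11.1%, against 8.48% of all genes higher, median 0.51). When GSK126 preceded lapatinib, 0 were higher and 1 lower (11.1%, against 6.35% lower, median 0.00). These shares rest on 1 gene each and lie near those of all genes. ERBB3, a HER2 partner receptor, rose in the first by 0.62 ± 0.18 (limma adjusted p = 0.0308). ERBB2, which encodes HER2, fell in the second from 297566 ± 7690.1 to 172335 ± 18630 counts (SD, n = 3, log2 change -0.79 ± 0.20, adjusted p = 0.0141). Each of these calls was lost when certain single libraries were left out: that of ERBB3 without any combination library or GSK126 replicate 3, and that of ERBB2 without lapatinib replicate 1 or 3. Across all 6 lists, spike-in scaling left 0 genes called higher when lapatinib was added to GSK126.

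**Figure D4:**
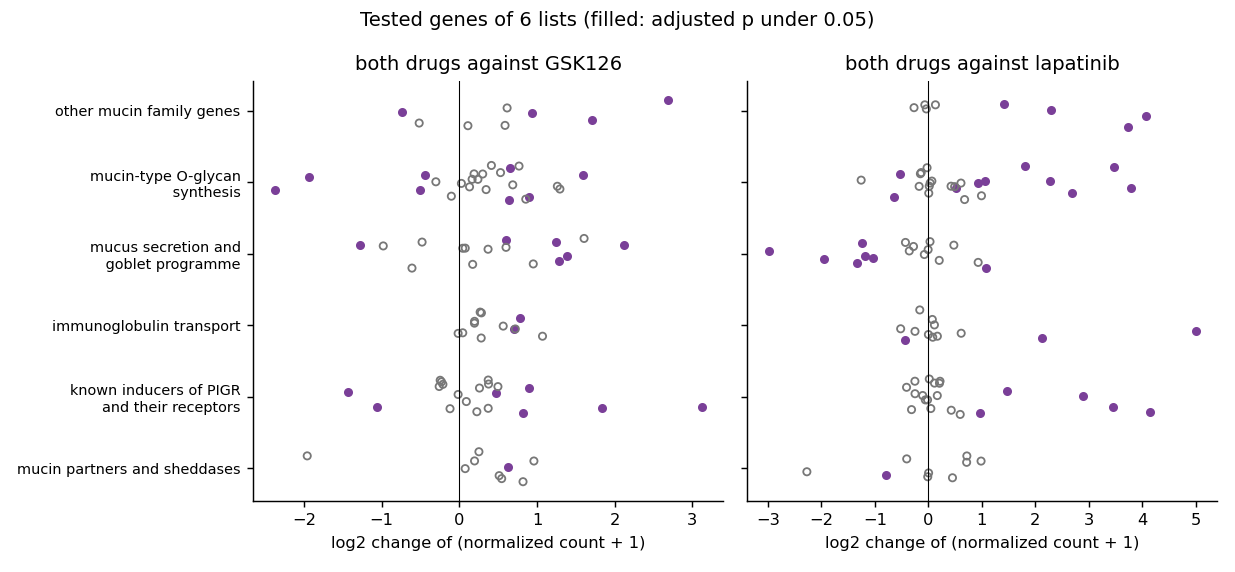
Log2 change of the tested genes of the 6 lists when lapatinib was added to GSK126 and when GSK126 preceded lapatinib. Each point is a gene and filled points passed an adjusted p of 0.05. The mucus and goblet list holds 5 genes called higher in the first comparison and 6 called lower in the second.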

How the data were processed

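Messenger RNA libraries of SKBR3 cells (12, Kapa mRNA HyperPrep) were read as 75 bp single ends on a NextSeq500, per the labels' protocols. Reads were aligned with STAR to hg19 and normalized with DESeq2, per the submitters' processing notes, with no versions. The counter, the annotation, strand and multi-mapping settings are not given in the sources used here. Each deposited value is a signal, namely a gene's reads scaled by the authors with a factor per library. They were whole multiples of the smallest step in each library (100% within 0.01), so the reads could be recovered. Of 22256 rows, 86 were spike-ins and were left out.

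Tests used limma 3.58.1 in R 4.3.3 (trended prior, all 12 libraries, 8 residual degrees of freedom) on log2(value + 1) with Benjamini-Hochberg adjustment. Recovered reads were tested with edgeR 4.0.16 (quasi-likelihood) and DESeq2 1.42.0 as alternatives. Filters, pseudocounts, scalings and single libraries were also varied. The fit was tested on simulated data. The genes and lists were chosen with earlier results of these data known. All members are described. Up to 4 genes per list and comparison are named, those with the smallest adjusted p, and some of them are given in the other comparison too. The 5 genes most correlated with MUC15, PIGR and the member of highest mean are also named. Libraries of a group differed beyond sampling noise, and 17693103 to 30349466 reads in genes stood behind each.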

Additional observations from a re-analysis of the deposited data

How the results depend on the processing

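Over 26 alternatives, the rise of MUC15 over GSK126 and those of PIGR and MUC20 over lapatinib kept their direction and call. Without 1 library at a time the first ranged from 2.67 to 3.21 and that of PIGR from 4.36 to 5.10. Of 555 alternative values for single genes, 497 kept direction and call or, where no test was made, moved by less than 1 SD between replicates. The genes called for the combination against GSK126 (2579) became 948 with only those 2 groups, 5836 without the second spike-in composition and 7280 with array weights, and 1359 to 4412 without 1 library (lowest without combination replicate 2, highest without GSK126 replicate 2). Against lapatinib, 2537 became 408 with spike-in scaling, 5094 with 2 groups and 8515 with array weights, and 1739 to 3577 without 1 library. The interaction's 3 genes became 1 with no filter, total count scaling or the replicate block, 0 with spike-in scaling, 115 with DESeq2, 615 without the second composition, 3284 with array weights and 1 to 18 without 1 library. The 2-group fit gives no interaction.

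Some changes turned sign, and the cause was not tested. Against GSK126, MUC4 was -0.73 with spike-in scaling, -0.66 with array weights, -0.10 without GSK126 replicate 1 and -0.22 without combination replicate 1 (up to 0.678 without combination replicate 2). MUC6 was -1.15 without the second composition, and PIGR -0.23 with spike-in scaling. Against lapatinib, MUC16 was -0.0128 with spike-in scaling, and MUC6 was -0.14 with it, -0.38 without the second composition or combination replicate 1, -0.23 with array weights and -0.0029 without lapatinib replicate 2 (up to 0.686 without combination replicate 2). The interaction turned for MUC4 without DMSO replicate 1 (0.11, down to -1.23 without DMSO replicate 3) and MUC20 without GSK126 replicate 1 (0.0122, down to -0.723 without DMSO replicate 1). For MUC6 it was 0.07, 0.00437, 0.20, 0.77, 0.34 and 0.23 without DMSO 1, lapatinib 1, lapatinib 3, GSK126 1, combination 2 and combination 3, and -0.785 without GSK126 2.

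Same-numbered libraries of the combination deviated together in no regular way (correlations -0.334, 0.285 and -0.104 against GSK126, and 0.007, -0.082 and -0.125 against lapatinib). Between GSK126 and DMSO they were 0.308, 0.352 and -0.127, and between lapatinib and DMSO 0.014, -0.109 and 0.072. Signs differed between replicates in each comparison, and the numbers were not taken as pairs. With the replicate block, 2299 and 2295 genes were called, and MUC16 against lapatinib had an adjusted p of 0.0525. The interaction of MUC1 passed without the second composition (-1.93, adjusted p = 0.0134) and with array weights (-1.51, adjusted p = 0.000251), as did that of MUC5B (-1.05 and -1.20). That of MUC16 passed with array weights (-0.469, adjusted p = 0.0196). Depth limits MUC4, MUC6 and MUC13, at 119, 129 and 46 reads in all.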
